A study of Homo sapiens with 6 samples.

Results

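The 7 genes described here, ABCA1, ABCG1, APOE, MYLIP, LPCAT3, NR1H2 and NR1H3, are the cholesterol-sensing liver X receptors (LXRs) and a set of their known target genes. They were picked by symbol from a table of 17990 genes, and all 7 were found, LPCAT3 under its older symbol MBOAT5. The choice was made because the decline of ABCA1 in these libraries was already known, so the values of ABCA1 are a description and carry no test. LNCaP is an established human prostate cancer line, derived from a lymph node metastasis, that responds to androgens through a mutated androgen receptor. There were 5 libraries of cells given 10 nM dihydrotestosterone (DHT), a potent natural androgen, for 3, 6, 12, 24 and 48 h, and 1 library of untreated cells at 0 h. Every culture, the untreated one included, had first spent 3 days in medium with charcoal-stripped serum, which is low in steroid hormones and also in lipids. Each group had 1 library, so no difference could be set against a spread between replicates. Untreated cells at the later times were not analysed here, and the effect of DHT cannot be told apart from that of time in culture.

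LXRs are nuclear receptors that bind oxysterols, oxidised forms of cholesterol, and act as pairs with retinoid X receptors on target genes. Their targets lower the cholesterol of a cell: ABCA1 and ABCG1 export it, APOE carries it away, and MYLIP has lipoprotein receptors degraded. The opposing arm is run by SREBP2, the product of SREBF2, which raises cholesterol synthesis and uptake when sterols are scarce. The microRNAs miR-33a and miR-33b, encoded in introns of SREBF2 and SREBF1, are known to repress ABCA1.

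ABCA1 is the gene on which the results turn, so the sequences below show its upstream stretch and the matches to the miR-33 seed in its 3′UTR. The first is the 250 bases upstream of the ABCA1 start site, from RefSeq on GRCh38.p14 at chr9:104928156-104928405, minus strand. The capitals mark a CACGTG E-box at positions -147 to -142 and, at -69 to -55, a match to the LXR-type direct repeat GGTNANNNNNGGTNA. The next sequences are the mature miRNAs, from RefSeq, with the seed (bases 2 to 8) in capitals. The last are stretches of 30 bases of the ABCA1 3′UTR on the minus strand of GRCh38, at chr9:104784155-104784184 and chr9:104782822-104782851. Their capitals mark matches to that seed, of which window 1 holds 3, counting overlapping ones, and window 2 holds 1.
ABCA1 promoter: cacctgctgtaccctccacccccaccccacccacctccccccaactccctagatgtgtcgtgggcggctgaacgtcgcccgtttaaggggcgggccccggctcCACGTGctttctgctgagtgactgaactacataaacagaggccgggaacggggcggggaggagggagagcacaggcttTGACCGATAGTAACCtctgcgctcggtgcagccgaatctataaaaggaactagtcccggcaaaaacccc
hsa-miR-33a-5p: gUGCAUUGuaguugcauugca
hsa-miR-33b-5p: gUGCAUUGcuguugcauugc
ABCA1 window 1: tattCAATGCAATGCAattCAATGCAatga
ABCA1 window 2: tttaattgcaaCAATGCAaaagccaagaaa

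The direct repeat lies on the other strand, where it reads ggttactatcggtca, and it is the element through which LXRs are known to induce ABCA1. Searched on both strands, its letters occurred in 187 of 35116 promoter windows of the same length (0.533%), and those of the E-box in 2228 (6.34%). Both counts include the window of ABCA1. The stricter repeat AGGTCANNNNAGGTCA was in 5 windows (0.0142%) and in none of the members' windows. Of the members with a window in the table (ABCG1 had none), only ABCA1 held the relaxed repeat or the E-box. The 2 miRNAs share 1 seed. Its match, CAATGCA, occurred 4 times in the 3313 bases of the ABCA1 3′UTR and in none of the other 6 members' 3′UTRs, which had between 88 and 852 bases. Among 3201 annotated 3′UTRs at least as long, read over their first 3313 bases, 17.1% held at least 1 match and 4 (0.125%) held at least 3. These 3′UTRs are counted per transcript, and that of ABCA1 is itself among the 4. Such matches describe the letters only, and the mature miRNAs themselves were not analysed here.

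Levels are given in CPM, counts scaled to the same total over all listed transcripts in each library; those totals were 13179917 to 20587956 counts. A log2 change compares (CPM + 1) in a DHT library with (CPM + 1) in the untreated library, which understates the change of genes at low levels. A gene was called higher or lower at 2-fold on that scale if its mean was at least 20 counts over the 6 libraries, a minimum that 11916 genes met. Of the 7 members, 6 met it; APOE did not. Intervals are exact 95% intervals that cover counting error only. All 5 comparisons use the same untreated library. Known androgen-induced genes were high with DHT: FKBP5, an androgen-induced co-chaperone, was at 2286 and 2050.4 CPM after 24 and 48 h with DHT, against 59.0 CPM in untreated cells. TMPRSS2 was at 4479 and 4554 CPM, against 404 CPM, and KLK3, which encodes prostate-specific antigen, was at 10012 and 11950 CPM, against 4727 CPM. All 10 luminal prostate markers examined were above 1 CPM in every library. Of 8 macrophage markers, macrophages being the cells in which ABCA1 is most studied, 6 or 7 were under 1 CPM in every library, and the sum of all 8 stayed between 15.4 and 19.8 CPM. Of 4 basal markers 3 were under 1 CPM in every library, and the sum of the 4, mostly ITGB4, was 10.9 and 16.2 CPM at 24 and 48 h with DHT, against 45.8 CPM in untreated cells. The sum of 6 fibroblast markers was 32.5 and 37.5 CPM at 24 and 48 h, against 70.3 CPM, and 5 of the 6 were under 1 CPM at those times, against 3 in untreated cells. The part of either in the decline of ABCA1 was not tested. Of 12 housekeeping genes, 1 was higher at 24 h, beside 10.5% of all genes. At 48 h 1 was higher and 1 lower, beside 15% and 7.33%.

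ABCA1, which loads cholesterol and phospholipid onto apolipoprotein A-I, fell with DHT at 12, 24 and 48 h. It had 144 counts in untreated cells and 104, 68, 41, 7 and 7 counts after 3, 6, 12, 24 and 48 h with DHT. In CPM these were 10.9 in untreated cells and 7.37, 5.07, 3.01, 0.340 and 0.465 with DHT. The untreated library was the highest of the 6, and each library up to 24 h was below the one before it. The log2 changes were -0.51, -0.97, -1.57, -3.15 and -3.02.

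At 24 h the level was 3.11% of that in untreated cells (1.23 to 6.58%), a 32.1-fold difference (15.2 to 81.4). At 48 h it was 4.26% (1.68 to 9.001%), or 23.5-fold lower (11.1 to 59.5). Between successive libraries the ratio was 0.674 (0.519 to 0.874) for 3 over 0 h, 0.688 (0.499 to 0.943) for 6 over 3 h and 0.593 (0.393 to 0.887) for 12 over 6 h. The step of 24 over 12 h was 0.113 (0.0428 to 0.254), and that of 48 over 24 h was 1.37 (0.410 to 4.57), with 7 counts in each. These intervals describe counting error between single libraries, and they are no test of the decline for which ABCA1 was chosen. In bulk RNA, fewer cells with ABCA1 and less ABCA1 per cell cannot be told apart.

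Counted from the lowest change among the 11916 genes, ABCA1 ranked 1351 at 3 h, 404 at 6 h, 507 at 12 h, 11 at 24 h and 16 at 48 h. The GC content of transcripts moved with the changes in these libraries, and ABCA1, at 45.5% GC, was set against it as well. With the trend on GC content subtracted, its log2 changes were -0.41, -1.32, -1.86, -3.25 and -3.16, so 6 h also passed 2-fold. The library at 12 h was depleted of genes from chromosome 4 (median log2 change -2.14 over 389 genes) and distal chromosome 15 (-2.76 over 165 genes). ABCA1 is on chromosome 9, and none of the 7 members lies in the depleted regions.

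ABCG1, which passes cholesterol to high-density lipoprotein, followed ABCA1 up to 6 h in the counts as deposited, and not later. It had 422 counts in untreated cells and 300, 190, 347, 496 and 258 with DHT. Its levels were 32.0 CPM in untreated cells and 21.3, 14.2, 25.5, 24.1 and 17.2 CPM with DHT. The lowest library was the one at 6 h, and untreated cells were again the highest. The log2 changes were -0.57, -1.12, -0.32, -0.40 and -0.86, past 2-fold at 6 h and at no other time. With the GC trend subtracted the change at 6 h was -0.98, just short of 2-fold. The steps of 3 over 0 h and 6 over 3 h had ratios of 0.664 (0.571 to 0.772) and 0.667 (0.553 to 0.802). In the counts as deposited these were close to those of ABCA1. With the GC trend subtracted, the log2 change of ABCA1 went from -0.41 at 3 h to -1.32 at 6 h. That of ABCG1 went from -0.58 to -0.98. The step of 12 over 6 h was 1.80 (1.502 to 2.16), where that of ABCA1 was 0.593.

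The ratio of ABCG1 to ABCA1 within each library does not depend on the scaling between libraries, but it is not corrected for the GC trend. That correction moved the 2 genes in opposite directions at 6 h. ABCA1 went from a log2 change of -0.97 to -1.32, and ABCG1 from -1.12 to -0.98. Per kb of transcript it was 10.5 (8.69 to 12.8) in untreated cells, 10.4 (8.26 to 13.1) at 3 h and 10.03 (7.57 to 13.4) at 6 h. It then reached 30.4 (21.9 to 43.1) at 12 h, 254 (123 to 636) at 24 h and 132 (63.3 to 332) at 48 h. From 12 h on the ratio follows the low ABCA1 counts for which that gene was chosen, so it is a description with no test.

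**Figure D1:**
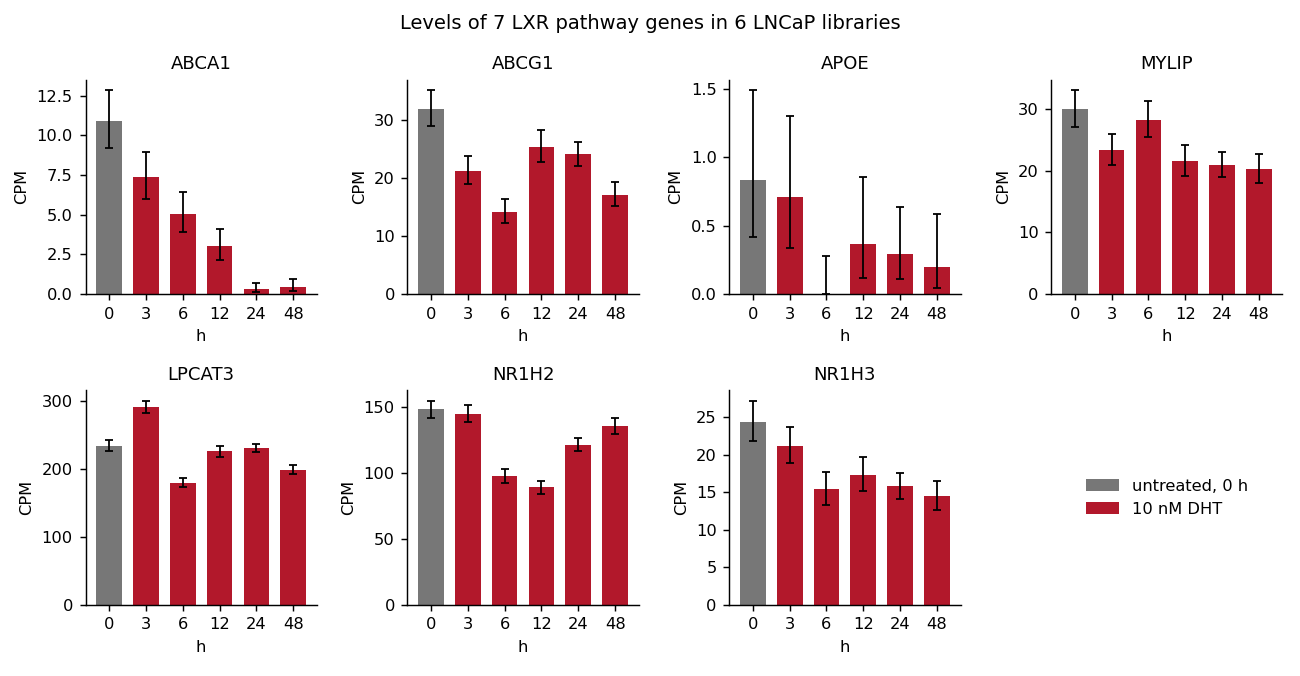
Levels in CPM (bars) of the 7 genes in untreated cells at 0 h (grey) and after 3 to 48 h with DHT (red), 1 library each, with exact 95% Poisson intervals for counting error; each panel has its own axis. ABCA1 drops to 0.340 and 0.465 CPM at 24 and 48 h, against 10.9 CPM in untreated cells, while ABCG1 is lowest at 6 h with 14.2 CPM.

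APOE, the apolipoprotein that takes up exported cholesterol, was near the detection limit. It had 11 counts in untreated cells and 10, 0, 5, 6 and 3 with DHT, or 0.835 CPM in untreated cells and 0.709, 0, 0.367, 0.291 and 0.199 CPM with DHT. All 6 libraries were under 1 CPM. The exact 95% interval of the count of 0 at 6 h reached 0.275 CPM, and the limit of 3 counts used for counts of 0 was 0.224 CPM. The ratio over untreated cells was 0.349 (0.106 to 1.03) at 24 h and 0.239 (0.0428 to 0.904) at 48 h. With at most 11 counts in a library, APOE entered no count of changed genes.

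MYLIP, the ubiquitin ligase that has lipoprotein receptors degraded, stayed within 2-fold. Its levels were 29.97 CPM in untreated cells and 23.3, 28.3, 21.6, 20.9 and 20.3 CPM with DHT. All 5 DHT libraries were below the untreated one, and the one at 6 h was nearest to it. The log2 changes were -0.35, -0.08, -0.46, -0.50 and -0.54, and with the GC trend subtracted -0.36, 0.04, -0.35, -0.23 and -0.22.

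LPCAT3, which places polyunsaturated fatty acids into membrane phospholipids, had the highest level of the 7 per kb in every library. It was at 235 CPM in untreated cells and at 292, 180.008, 226, 231 and 199 CPM with DHT. The 3 h library was the highest and the 6 h library the lowest, and no time passed 2-fold. The log2 changes were 0.31, -0.38, -0.05, -0.02 and -0.24; at 24 h the sign turned with TMM scaling (0.16), with median-of-ratios scaling (0.13) and with the GC trend subtracted (0.21). The GC correction also turned it at 12 h (0.01) and 48 h (0.05). Of the 2268 bases of its transcript, 1505 (66.4%) overlap exons of EMG1 on the opposite strand. Whether the counting used strand is not stated in the sources at hand, so reads of these genes may not be separated. EMG1 itself, a ribosome assembly factor, was at 54.1 CPM in untreated cells and at 73.5, 54.4, 57.5, 52.8 and 42.9 CPM with DHT.

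Of the receptors, NR1H2, which encodes the widely expressed LXR beta, was at 148 CPM in untreated cells and at 145, 97.8, 89.3, 122 and 136 CPM with DHT. Its libraries at 6 and 12 h were the lowest, and the one at 48 h was close to the untreated one. The log2 changes were -0.03, -0.60, -0.73, -0.28 and -0.13, none past 2-fold, and with the GC trend subtracted they were 0.02, -0.06, -0.30, 0.32 and 0.37. NR1H2 has a GC content of 63.0%, and its sign at 3, 24 and 48 h thus depended on that correction. At 3 h an alternative other than the GC correction turned the sign as well (0.027).

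NR1H3, which encodes LXR alpha, the form most abundant in liver and macrophages, was at 24.4 CPM in untreated cells and at 21.2, 15.4, 17.3, 15.8 and 14.4 CPM with DHT. The 4 libraries from 6 h on lay close together, below the untreated one. The log2 changes were -0.19, -0.63, -0.47, -0.60 and -0.72, none past 2-fold, and -0.18, -0.24, -0.14, -0.11 and -0.26 with the GC trend subtracted. Per kb, NR1H2 exceeded NR1H3 in every library, by 5.61 (4.97 to 6.36), 5.21 (4.499 to 6.07), 4.23 (3.67 to 4.88), 6.32 (5.63 to 7.12) and 7.73 (6.72 to 8.93) times with DHT, against 4.995 (4.44 to 5.64) times in untreated cells. The interval at 48 h lay above that in untreated cells, and the one at 24 h overlapped it narrowly.

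**Figure D2:**
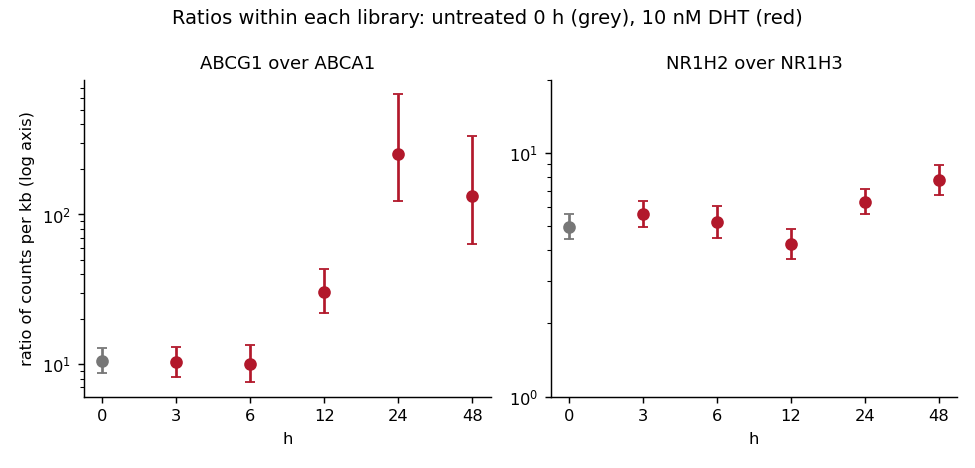
Ratios of counts per kb within each library, on log axes, for ABCG1 over ABCA1 and NR1H2 over NR1H3, with exact 95% intervals for counting error; untreated 0 h in grey, DHT in red. Without correction for GC content, ABCG1 over ABCA1 is level near 10.5 up to 6 h and reaches 254 at 24 h. NR1H2 over NR1H3 stays between 4.23 and 7.73.

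**Figure D3:**
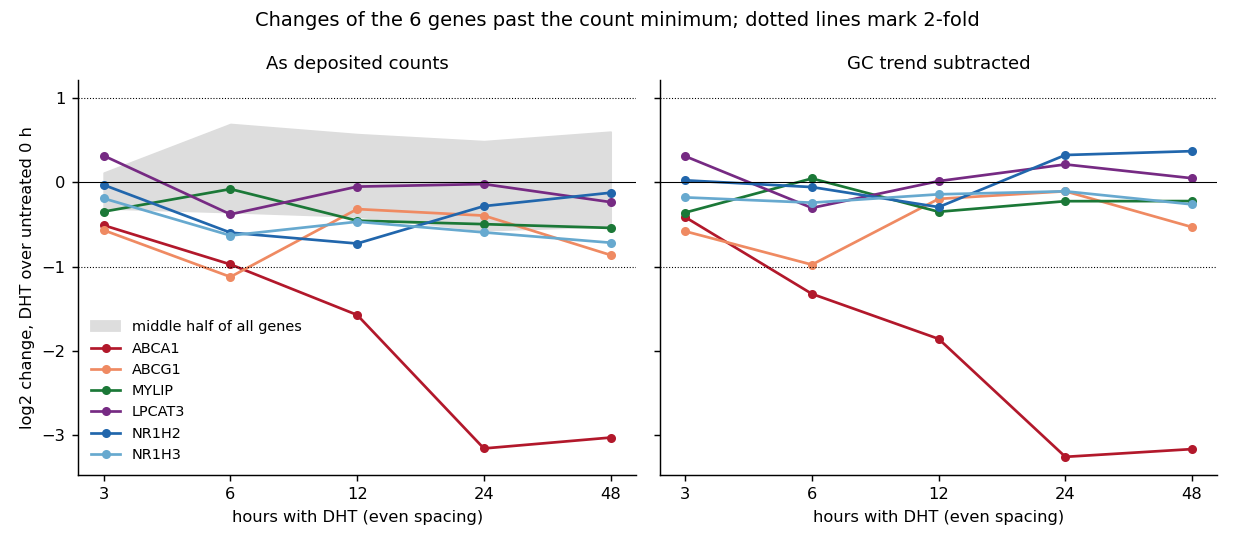
Log2 change of the 6 genes past the count minimum, DHT over untreated 0 h, against hours with DHT at even spacing, from the counts as deposited (left, with the middle 50% of all 11916 genes shaded) and with the GC trend subtracted (right). On the left panel ABCA1 leaves the other genes at 12 h and reaches -3.15 at 24 h. On the right panel it is already past 2-fold at 6 h (-1.32). Of the other 5, 4 stay within 2-fold at every time, and ABCG1 passes it at 6 h (-1.12) on the left panel alone.

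Averaged over the 6 libraries, levels per kb were 100.2 CPM for LPCAT3, 61.6 for NR1H2, 14.4 for MYLIP, 11.04 for NR1H3, 7.65 for ABCG1, 0.432 for ABCA1 and 0.331 for APOE. Some neighbours in this order did not differ beyond counting error in single libraries. At 24 h NR1H3 and ABCG1 were at 9.64 (8.62 to 10.8) and 8.24 (7.53 to 9.0004) CPM per kb. In untreated cells ABCA1 and APOE were at 1.04 (0.878 to 1.23) and 0.691 (0.345 to 1.24) CPM per kb. At 24 h that last pair had changed order, with ABCA1 at 0.0324 (0.0130 to 0.0668) and APOE at 0.241 (0.0885 to 0.525) CPM per kb.

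No member was called at 3 h, where 0.864% of all genes were called lower and 0.747% higher. At 6 h 1 of the 6 members tested, ABCG1, was called lower, beside 3.01% of all genes. At 12, 24 and 48 h 1 of 6, ABCA1, was called lower, beside 7.99%, 10.8% and 7.33% of all genes. The choice of members used these contrasts, so the shares are given as background alone. No member was called higher at any time, while 15.3%, 11%, 10.5% and 15% of all genes were higher at 6, 12, 24 and 48 h. With 6 members, these counts do not set the group apart from other genes.

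For some members the sign of the changes depended on the GC correction or on the baseline. ABCA1 and NR1H3 were below 0 at every time in every alternative. For LPCAT3 at 24 h the sign depended on the scaling between libraries as well. That of NR1H2 at 3 h also turned with an alternative other than the GC correction (0.027). At 6, 12, 24 and 48 h all 6 members, ABCA1 and ABCG1 with their calls included, had log2 changes below 0 as deposited, as did 45.6%, 48.4%, 54.3% and 53.0% of all genes. Their medians were -0.62, -0.46, -0.45 and -0.63, against 0.08, 0.03, -0.09 and -0.06 over all genes. Without ABCA1 the medians were -0.60, -0.46, -0.40 and -0.54. With the GC trend subtracted, 5, 5, 4 and 4 of the 6 were below 0; the share of all genes below 0 is not reported here for that setting. The medians of the 6 were then -0.27, -0.25, -0.11 and -0.24, against -0.0096, -0.020, 0.0079 and -0.0086 over all genes. Against the 3 h library, ABCG1 had 0.25 at 12 h and 0.17 at 24 h, and MYLIP had 0.27 at 6 h.

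The other known LXR targets did not move as 1 group. Of 22 listed, 9 passed the count minimum; 13 did not, ABCG5, ABCG8, LPL, CETP, PLTP and CD36 among them. At 24 h 2 of the 9 rose and 2 fell, beside 10.5% and 10.8% of all genes. At 48 h 3 rose and 2 fell, beside 15% and 7.33%. Their median log2 change was 0.28 at 24 h and 0.65 at 48 h, against -0.09 and -0.06 over all genes. SCD, the desaturase that makes oleic acid, was at 422 CPM in untreated cells and at 428, 353, 578, 914 and 2246 CPM with DHT, a log2 change of 1.11 at 24 h and 2.41 at 48 h. MERTK, a receptor kinase for the uptake of dying cells, was at 26.3 CPM in untreated cells and at 25.4, 40.0, 54.3, 102 and 93.7 CPM with DHT (1.91 at 24 h and 1.80 at 48 h). SMPDL3A, a phosphodiesterase, was at 9.86 and 12.9 CPM at 24 and 48 h, against 5.31 CPM; it passed 2-fold at 48 h (1.14), but not with the GC trend subtracted (0.51).

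PNPLA3, a lipase of lipid droplets, was like ABCA1 lower in each library up to 24 h than in the one before. It was at 7.13 CPM in untreated cells and at 3.90, 2.24, 1.91, 0.874 and 2.33 CPM with DHT, log2 changes of -0.73, -1.33, -1.48, -2.12 and -1.29. Its levels at 6, 12, 24 and 48 h rested on 30, 26, 18 and 35 counts. The ratio over untreated cells was 0.314 (0.201 to 0.478) at 6 h and 0.268 (0.166 to 0.417) at 12 h, with intervals that overlap. MLXIPL, which encodes the glucose-responsive factor ChREBP, was at 3.89 and 5.58 CPM at 24 and 48 h, against 13.2 CPM in untreated cells (-1.54 and -1.11). With the GC trend subtracted, MLXIPL at both times (-0.92 and -0.61) and PNPLA3 at 48 h (-0.94) were within 2-fold.

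SREBF1, both an LXR target and the host gene of MIR33B, was at 400 CPM in untreated cells and at 428, 302, 382, 484 and 626 CPM with DHT. SREBF2, the host gene of MIR33A, was at 381 CPM in untreated cells and at 393, 304, 434, 636 and 628 CPM with DHT. Both were lowest at 6 h and above the untreated level at 24 and 48 h. At those times the log2 changes were 0.28 and 0.65 for SREBF1 and 0.74 and 0.72 for SREBF2, all short of 2-fold. With the GC trend subtracted they were 0.93 and 1.15 for SREBF1 and 1.20 and 1.16 for SREBF2, of which 3 passed it. Host gene RNA is not a measure of the mature miRNA.

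Of the partners of LXR, 12 retinoid X receptor and coregulator genes passed the minimum. At 24 and 48 h 1 of them was higher and none lower. Over all genes 10.5% were higher and 10.8% lower at 24 h, and 15% and 7.33% at 48 h. At 6 h 1 was higher and 1 lower, beside 15.3% and 3.01% of all genes. The gene higher at 24 and 48 h was TBL1XR1, a subunit of the NCoR corepressor complex. At 24 h it was at 461 CPM, against 218 CPM in untreated cells, a log2 change of 1.08. At 48 h it was at 532 CPM (1.28). GC-corrected, it was within 2-fold (0.48 and 0.43). RXRA, the main LXR partner in many tissues, was at 172 and 203 CPM at 24 and 48 h, against 279 CPM, with log2 changes of -0.70 and -0.46 that were -0.085 and 0.037 with the GC trend subtracted. HDAC3, the deacetylase of the NCoR complex, was at 57.2 and 56.3 CPM, against 84.2 CPM (-0.55 and -0.57, and -0.29 and -0.27 with the trend subtracted).

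The enzymes that make oxysterols were mostly at low levels. CYP27A1, CYP7B1 and CYP11A1 did not pass the minimum, and CH25H was at 0 counts in all 6 libraries, which allows up to 0.146 to 0.228 CPM. The minimum was passed by 5 of 9. CYP46A1, which makes an oxysterol in neurons, was at 5.93 and 8.24 CPM at 24 and 48 h, against 3.64 CPM, with log2 changes of 0.58 and 0.99 that passed 2-fold with the GC trend subtracted (1.16 and 1.48). HSD3B7, a bile acid enzyme, was at 48.6 and 42.1 CPM, against 79.4 CPM (-0.70 and -0.90, and -0.14 and -0.42 with the trend subtracted). SULT2B1, which sulfates sterols, was at 15.8 and 20.8 CPM, against 24.2 CPM (-0.58 and -0.21), and CYP39A1, an oxysterol hydroxylase, at 7.14 and 12.2 CPM, against 6.60 CPM (0.10 and 0.79). The GC correction turned the sign for SULT2B1 at 48 h (-0.07 and 0.26) and for CYP39A1 at both times (-0.57 and -0.18).

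Other transporters of the ABCA and ABCG families went in both directions. Of 15 genes 7 passed the minimum, and at 24 h 1 rose and 3 fell, beside 10.5% and 10.8% of all genes. ABCA5 was at 22.1 and 35.2 CPM at 24 and 48 h, against 4.10 CPM in untreated cells (2.18 and 2.83, and 1.13 and 1.15 with the GC trend subtracted). ABCA2, a transporter of late endosomes, was at 193 and 278 CPM, against 467 CPM (-1.27 and -0.75). ABCA4, the retinal transporter, was at 0.826 and 1.53 CPM, against 4.48 CPM (-1.58 and -1.11), and ABCA12, the transporter of skin lipids, at 2.14 and 4.72 CPM, against 7.89 CPM (-1.50 and -0.64). With the GC trend subtracted, ABCA2 at 24 h (-0.65) and ABCA4 at 48 h (-0.82) were within 2-fold, and ABCA12 at 48 h was past it (-1.08).

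Among receptors that MYLIP degrades or that bind APOE, 2 of 6 rose and 2 fell at both 24 and 48 h. Over all genes 10.5% rose and 10.8% fell at 24 h, and 15% and 7.33% at 48 h. VLDLR, a substrate of MYLIP and a receptor of APOE, was at 18.7 CPM in untreated cells and at 17.2, 48.3, 53.9, 80.6 and 79.0 CPM with DHT, log2 changes of 2.05 at 24 h and 2.02 at 48 h. SORL1, a sorting receptor, was at 20.4 and 23.5 CPM at 24 and 48 h, against 81.8 CPM (-1.96 and -1.76). LRP1, a large APOE receptor, was at 104 and 137 CPM, against 295 CPM (-1.50 and -1.10), and within 2-fold with the GC trend subtracted (-0.98 and -0.63).

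Of 26 sterol synthesis and SREBP2 pathway genes, the arm that opposes LXR, 12 rose and none fell at 24 h. At 48 h 13 rose and 1 fell. Over all genes 10.5% rose and 10.8% fell at 24 h, and 15% and 7.33% at 48 h. The median log2 changes were 0.92 and 0.98, against -0.09 and -0.06 over all genes. The choice of members drew on the rise of these sterol genes as well. HMGCS1, an early enzyme of the pathway, was at 213 and 242 CPM at 24 and 48 h, against 31.6 CPM in untreated cells, and the isomerase IDI1 at 111 and 172 CPM, against 16.6 CPM. Their log2 changes, 2.71 and 2.89 for HMGCS1 and 2.67 and 3.30 for IDI1, were 2.16 and 2.11 and 2.08 and 2.47 when GC-corrected. INSIG1, which holds SREBPs in the endoplasmic reticulum when sterols are plentiful, was at 231 and 473 CPM, against 35.0 CPM. The 1 that fell, TM7SF2, a sterol reductase, was at 172 CPM at 48 h, against 468 CPM (-1.44), and just within 2-fold with the GC trend subtracted (-0.96).

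Of 12 genes of cholesterol storage and transport inside the cell, 3 rose at 24 h and 1 fell, beside 10.5% and 10.8% of all genes. STARD4, a soluble sterol carrier, was at 18.1 and 30.5 CPM at 24 and 48 h, against 1.82 CPM (2.76 and 3.48, and 1.79 and 1.94 with the GC trend subtracted), and NPC1, which moves cholesterol out of lysosomes, at 86.0 and 131 CPM, against 35.2 CPM (1.26 and 1.86). SOAT1, which esterifies cholesterol, was at 94.3 and 99.4 CPM, against 43.9 CPM (1.09 and 1.16), and within 2-fold with the GC trend subtracted (0.48 and 0.30). GRAMD1A, a sterol carrier at membrane contacts, was at 90.8 and 129 CPM, against 221 CPM (-1.27 and -0.76), and with the trend subtracted was within 2-fold at 24 h as well (-0.64).

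The relatives of LPCAT3, enzymes that put fatty acids onto lysophospholipids, included genes that moved further than LPCAT3. Of 9 measured, 1 rose and 3 fell at 24 h, beside 10.5% and 10.8% of all genes. MBOAT2 was at 34.1 CPM in untreated cells and at 46.3, 271, 313, 448 and 572 CPM with DHT (3.68 at 24 h and 4.03 at 48 h, and 3.02 and 3.07 with the GC trend subtracted). LPCAT4 was at 5.78 and 12.0 CPM at 24 and 48 h, against 35.9 CPM (-2.44 and -1.50), and AGPAT2, which makes phosphatidic acid, at 32.5 and 41.7 CPM, against 83.5 CPM (-1.33 and -0.98). LPCAT2 was at 0.729 and 1.73 CPM, against 2.58 CPM (-1.05 and -0.39), and LCLAT1 at 41.0 and 44.6 CPM, against 23.9 CPM (0.76 and 0.87). After GC correction AGPAT2 at 24 h was within 2-fold (-0.65), LPCAT2 was past it at both times (-1.82 and -1.55), LPCAT4 had -2.02 and -1.08, and LCLAT1 had 0.13 and -0.02.

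**Figure D4:**
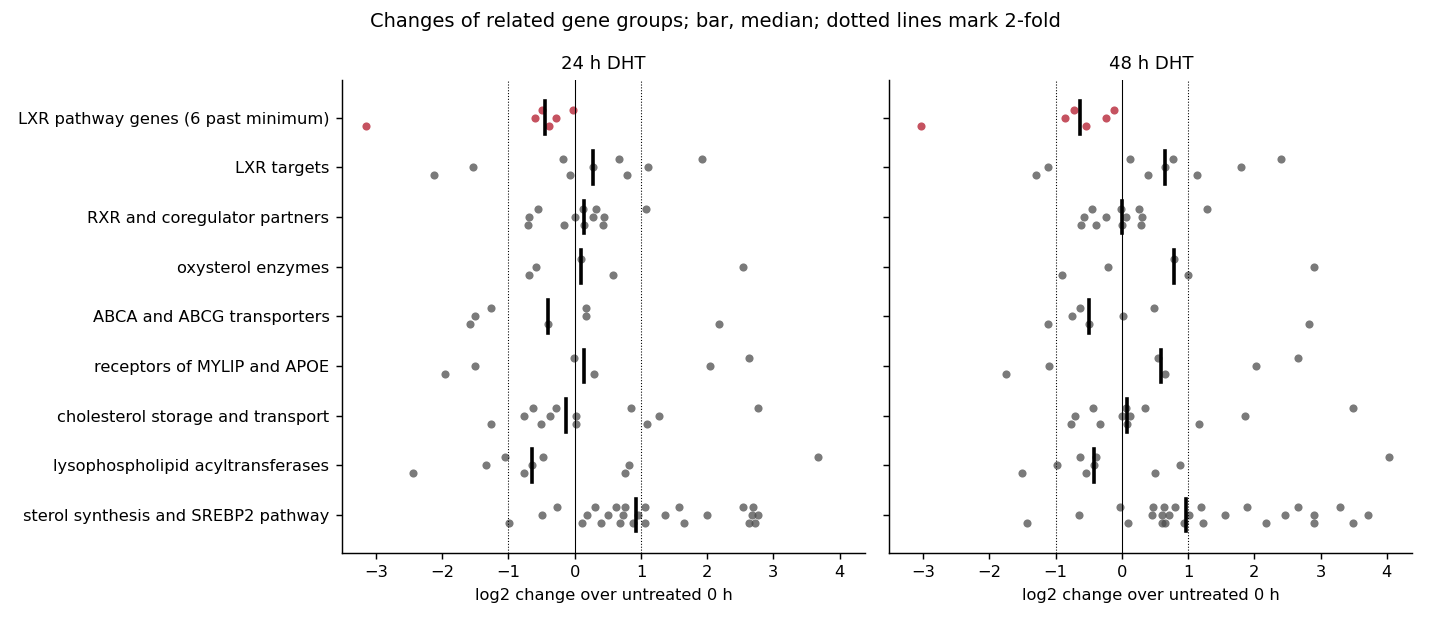
Log2 changes of single genes (points) at 24 and 48 h, DHT over untreated 0 h, for the LXR pathway genes past the minimum (red) and 8 related groups (grey), with the median of each as a bar and dotted lines at 2-fold. Medians at 24 h are -0.45 for the LXR pathway genes, 0.28 for the other LXR targets and 0.92 for sterol synthesis genes; some genes, STARD4 among them, stand in more than 1 group.

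The genes whose 5 log2 changes lay nearest to those of ABCA1, by Euclidean distance among the 11916 genes, were VWA2 (0.467), HEPN1 (0.678), SLC9A3 (0.702), COL16A1 (0.740) and LRRN1 (0.756). VWA2, an extracellular matrix protein, was at 13.9 CPM in untreated cells and at 11.1, 6.86, 3.52, 0.486 and 1.33 CPM with DHT. SLC9A3, a sodium-proton exchanger, was at 3.01 and 5.18 CPM at 24 and 48 h, against 31.1 CPM, and the collagen gene COL16A1 at 1.41 and 1.53 CPM, against 15.9 CPM. Corrected for GC content, their log2 changes at 24 h were -2.39 and -2.21, against -3.001 and -2.81 as deposited. LRRN1, a neuronal membrane protein, was at 13.9 and 13.2 CPM, against 168 CPM. HEPN1 was at 0.243 and 0.598 CPM, against 9.41 CPM, but all of its exonic bases overlap HEPACAM on the opposite strand, so its counts are uncertain. These genes were chosen for their likeness, which is a description over 6 libraries.

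For ABCG1 the nearest genes were EPHB3 (0.232), an ephrin receptor, CORO7 (0.411), a coronin of the Golgi, and CASKIN2 (0.445), a scaffold protein. EPHB3 was at 48.4 CPM in untreated cells and at 28.8, 23.8, 36.8, 35.6 and 27.6 CPM with DHT, lowest at 6 h like ABCG1. CORO7 was at 76.8 and 71.5 CPM at 24 and 48 h, against 105 CPM, and CASKIN2 at 24.7 and 18.4 CPM, against 35.4 CPM. None of the 3 passed 2-fold at 6 h, where their log2 changes were -0.995, -0.88 and -0.71. Corrected for GC content these were -0.48, -0.29 and -0.12, and at 24 h the sign turned for all 3: EPHB3 had -0.43 as deposited and 0.15 corrected, CORO7 -0.44 and 0.21, and CASKIN2 -0.50 and 0.15.

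**Figure D5:**
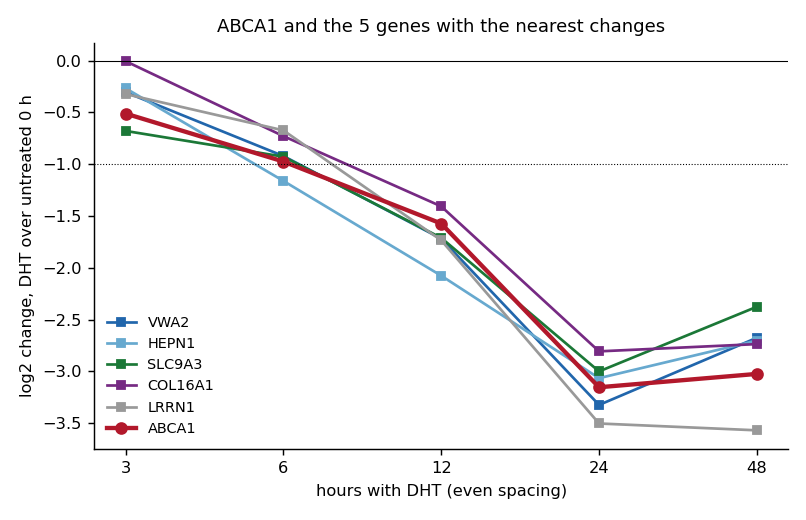
Log2 change, DHT over untreated 0 h, of ABCA1 (thick red) and the 5 genes with the nearest changes, against hours with DHT at even spacing; the dotted line marks 2-fold. All 6 genes decline up to 24 h, to between -3.50 (LRRN1) and -2.81 (COL16A1), and ABCA1 then stands at -3.02 at 48 h.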

How the data were processed

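RNA of LNCaP cells was sequenced in 6 libraries, 1 per time. Extraction with ISOGEN and sequencing on an Illumina GAIIx are stated per the labels' protocols, and build hg19 per the submitters' processing notes. Which aligner and counter were run, and whether reads were counted by strand, is not given in the sources used here. Per the file headers, the deposited table holds a count (tag) column and an RPM column (headed ppm) per library, and the RPM values are those counts as scaled by the authors. The counts were analysed, and the RPM denominator served as an alternative. After removal of 50 exact repeats, transcripts sharing a symbol were summed to 17990 genes. All 7 members were matched by symbol, older symbols allowed, and each has 1 deposited transcript. Listed transcripts held 86.9 to 89.5% of the deposited denominators. Where a gene had no count, the upper limit was set at 3 counts, which is 0.146 to 0.228 CPM depending on the library. No molecular identifiers are named, so intervals cover counting error only. With 1 library per group no test across samples was possible, and 2-fold was a fixed rule of size; how the scripts recover known folds was tested on simulated data.

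The GC trend was a lowess curve (span 0.3, statsmodels 0.14.6) of the log2 change on transcript GC content, from GENCODE v29 transcripts, for 11140 (93.5%) of the filtered genes. TMM factors came from edgeR 4.0.16 in R 4.3.3, and other computations used scipy 1.17.1 and Python 3.11.15. Sequences and chromosomes came from RefSeq on GRCh38.p14, and 3′UTRs from GENCODE v29 on GRCh38; no coordinates of the hg19 table are printed. The members, the gene lists and the alternatives were chosen with earlier results of these data known. The genes named are the members, up to 4 per list with the largest absolute change at 24 h and at 48 h, the 5 nearest to ABCA1, the 3 nearest to any other member past 2-fold, and FKBP5, TMPRSS2 and KLK3. SREBF1, SREBF2, EMG1 and TM7SF2, and genes under the minimum, stand outside that rule or in counts and were named with their values known. RXRB, OSBPL1A, GRAMD1B, MBOAT1 and AGPAT1 were not analysed here, and some genes that the rule covers are not reported here. Some named genes share transcript bases with other annotated genes, so their counts are less certain: HSD3B7 (59.4%), VLDLR (22.8%), SLC9A3 (21.6%) and HMGCS1 (20.3%) with non-coding genes of the opposite strand, and CORO7 (82.4%) with a read-through gene of its own strand.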

Additional observations from a re-analysis of the deposited data

How the results depend on the processing

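No paired analysis was possible because every group has 1 library; for the same reason no library could be left out of a group. The decline of ABCA1 was past 2-fold at 24 and 48 h in 8 of 8 alternatives, at 12 h in 7 of 8 and at 6 h in 4 of 8, apart from the count minimum below, and no call changed sign. At 7 counts its size depends on the pseudocount. With 0.25 CPM its log2 change was -4.24 at 24 h and -3.97 at 48 h. With 5 CPM it was -0.99, -1.58 and -1.54 at 12, 24 and 48 h. Against the 3 h library it was -0.46, -1.06, -2.64 and -2.51 at 6, 12, 24 and 48 h. ABCG1 at 6 h was past 2-fold in 5 of 8 alternatives, between -1.22 and -0.55. TMM scaling gave a median of 0.08 over all genes at 24 h, against -0.09 as reported.

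Members called lower at 6 h numbered 2 with TMM, median-of-ratios scaling or a pseudocount of 0.25, 0 with a pseudocount of 5 or the 3 h library as baseline, and 4 at 1.5-fold. At 12 h there were 0 with a pseudocount of 5 and 2 at 1.5-fold, at 24 h 2 and at 48 h 3 at 1.5-fold. A minimum of 100 counts left 0 at 12, 24 and 48 h, because it removes ABCA1, whose mean is 61.8 counts. Of the other LXR targets, 4 were higher at 24 h and 5 at 48 h at 1.5-fold. The share of all genes higher at 1.5-fold is not reported here, so these counts stand without a background. The other LXR targets called lower were 1 at 24 h with the GC trend subtracted or a minimum of 100. At 48 h they were 0 with the GC trend subtracted, a pseudocount of 5 or the 3 h baseline, and 1 with a minimum of 100.

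Over all genes, those lower at 3 h were 103 as reported, 179 and 19 with pseudocounts of 0.25 and 5, 48 with the GC trend subtracted and 969 at 1.5-fold. At 6 h they were 359, against 151 (pseudocount 5), 174 (GC), 167 (3 h baseline) and 1600 (1.5-fold). At 12 h they were 952, against 580 (pseudocount 5), 505 (without chromosome 4, distal 15 and genes of unknown chromosome) and 2069 (1.5-fold). At 24 h they were 1287, against 691 (pseudocount 5), 733 (GC), 857 (minimum of 100) and 2884 (1.5-fold). At 48 h they were 874, against 473 (pseudocount 5), 537 (GC) and 2621 (1.5-fold). For genes called higher, 15 of 54 counts over the alternatives and times differed from the reported count by a factor of more than 1.5. These alternative counts are not reported here. In no case was the cause of the shift tested.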
